A study of Mus musculus with 264 samples.

Results

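The comparison covers 67 single neurospheres of culture Set-B, 33 exposed to 100 mM ethanol and 34 grown without it, out of 264 neurospheres measured in the series. The members were chosen by the culture set and the ethanol concentration in their labels. Run 1 held 11 neurospheres of each dose, and run 3 held 22 at 100 mM and 23 at 0 mM. The doses were compared within each run and then combined, so that no difference between runs enters the comparison. The question was how exposure changed the transcripts of single neurospheres.

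Neurospheres are free-floating clusters that neural stem and progenitor cells form when they divide without a surface to attach to. The cells of the dorsal telencephalic ventricular zone are the source of the projection neurons of the cerebral cortex. Ethanol is a teratogen, and the fetal cortex is among the tissues that prenatal exposure is known to damage.

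All 67 neurospheres came from C57/Bl6 mouse fetuses at gestational day 12.5, from the dorsal telencephalon. Cells of whole litters were pooled before culture, so a neurosphere is not an animal. Both doses were grown in the same defined medium with basic fibroblast growth factor, epidermal growth factor, leukemia inhibitory factor, heparin, progesterone and an insulin, transferrin and selenium supplement. The control group had 0 mM ethanol and the exposed group 100 mM, which the treatment protocol equates with 450 mg/dl, and collection followed on day 5. The 67 neurospheres share 1 culture set, and nothing in the labels says in how many dishes each dose was grown. P-values therefore measure the spread between neurospheres, and dose and dish cannot be told apart.

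The values are cycle numbers from quantitative PCR, the amplification cycle at which product was first counted as present, over 30 cycles. The scale is an inverted log2 scale, and a reading 1 cycle lower corresponds to about 1 doubling more template if the primers double their product in each cycle. The table holds 75 assays under coded identifiers. The files do not pair the codes with genes, and 0 of 75 matched the mouse gene table, so roles of single genes cannot be given and the labelled cell type could not be checked against its defining markers. Of 5025 readings, 525 (10.4%) had no value and count here as not detected, and the others ran from 3.14 to 27.6 cycles. No molecule count stands behind a cycle number, and errors are those between neurospheres. In 4 assays the median over all Set-B neurospheres was between 7.38 and 13.4 cycles lower in run 1 than in run 3, whereas the gap was at most 2.73 cycles in the other 67 assays with values in both runs. These 4 assays, A001, A047, A052 and A072, were singled out after their values were seen. The mean cycle number, the relative level and the differences between runs and from Set-A are given with and without them. Detected assays, detection shares and the counts for uncentred level and spread are given with them only.

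Exposure to 100 mM ethanol went with earlier product in both runs. The mean cycle number of a neurosphere was averaged across 50 assays, those with a value in at least 95% of all neurospheres. It was 14.1 ± 2.18 cycles at 0 mM (SD, n = 34) and 10.6 ± 1.71 cycles at 100 mM (SD, n = 33). In run 1 the 0 mM neurospheres lay between 11.3 and 16.6 cycles with a median of 14.5, and the 100 mM neurospheres between 8.65 and 13.0 with a median of 9.95. In run 3 the 0 mM neurospheres lay between 9.22 and 17.4 cycles with a median of 15.1, and the 100 mM neurospheres between 8.58 and 13.6 with a median of 9.98. All 33 exposed neurospheres read below the 0 mM median of their own run, but the groups overlapped. Of the 34 neurospheres at 0 mM, 9 read below the highest 100 mM neurosphere of their run.

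The combined difference in mean cycle number was -3.48 cycles (SE 0.483). In a permutation test with 100000 resamples, dose labels permuted within run, two-sided, p was 1e-05, the smallest these resamples can give, and 2.25e-05 after Benjamini-Hochberg adjustment over the 9 tests made on whole neurospheres. Within run 1 the difference was -3.60 cycles (permutation p = 0.00033), and within run 3 it was -3.41 cycles (permutation p = 2e-05). The run 3 difference minus the run 1 difference was 0.187 cycles, a slightly smaller shift in run 3 (SE 1.04, permutation p = 0.856). With an SE of that size, a difference between runs of well over a cycle could have gone unresolved. Without A001, A047 and A052, which were among the 50 assays, the combined difference was -3.35 cycles. A neurosphere holds an unknown number of cells, so more cells and more RNA per cell cannot be told apart.

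**Figure D1:**
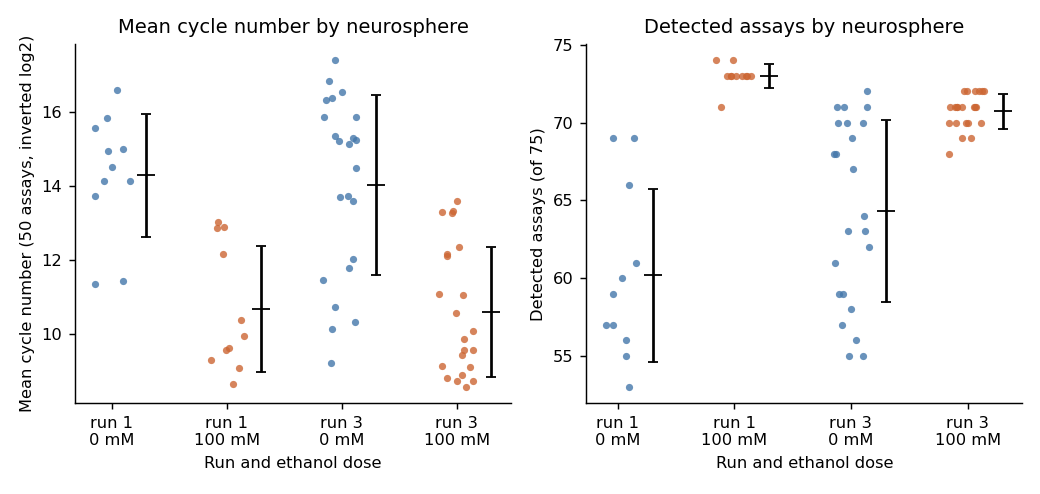
Mean cycle number over 50 assays (left, in cycles on an inverted log2 scale) and number of detected assays of 75 (right) for each of the 67 neurospheres, by run and ethanol dose, with 1 point per neurosphere and the mean ± SD beside each group. The 100 mM neurospheres sit lower in mean cycle number in both runs, with overlap, and all of them have at least 68 detected assays.

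More transcripts were detected in the exposed neurospheres. A neurosphere had 63.0 ± 6.01 detected assays at 0 mM (SD, n = 34), between 53 and 72, and 71.5 ± 1.48 at 100 mM (SD, n = 33), between 68 and 74. In run 1 the groups did not overlap, with a lowest value of 71 at 100 mM and a highest value of 69 at 0 mM. In run 3 they did, and 10 of 23 neurospheres at 0 mM detected at least as many assays as the lowest 100 mM neurosphere. The combined difference was 8.52 assays (SE 1.00, permutation p = 1e-05, adjusted p = 2.25e-05), with 12.8 assays in run 1 and 6.42 in run 3. Mean cycle number moved with this count among unexposed neurospheres. Across the 0 mM neurospheres Pearson's r between the number of detected assays and the mean cycle number was -0.81 in run 1 (n = 11) and -0.86 in run 3 (n = 23). At 100 mM, where nearly all assays were detected, r was -0.24 (n = 11) and -0.14 (n = 22). These coefficients describe neurospheres of the same dishes, and both quantities come from the same reactions.

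Diameter, the other measure of a whole neurosphere, passed the test in run 3 and not in run 1, and the difference between runs was not tested. In run 1 the mean diameter was 46.0 ± 12.6 µm at 0 mM (SD, n = 11) and 41.9 ± 9.84 µm at 100 mM (SD, n = 11), a log2 difference of -0.13 (SE 0.15, permutation p = 0.422). In run 3 it was 41.5 ± 6.93 µm at 0 mM (SD, n = 23) and 25.6 ± 5.54 µm at 100 mM (SD, n = 22), a log2 difference of -0.71 (SE 0.084, permutation p = 1e-05). The diameters of run 3 at 100 mM did not share the measuring step of the rest. All 45 other diameters were whole multiples of that step to within 0.001 µm, and 0 of these 22 were. Whether these 22 diameters are on the same scale of micrometres was not tested, so the combined log2 difference of -0.52 (SE 0.076, permutation p = 1e-05, adjusted p = 2.25e-05) rests on values whose comparability is unknown. The deposited size labels follow the same values, with 21 of 22 neurospheres labelled S and 1 labelled M in run 3 at 100 mM, against 4 labelled S, 18 labelled M and 1 labelled L in run 3 at 0 mM. The difference in mean cycle number was -3.60 cycles in run 1 and -3.41 in run 3. With log2 diameter as a covariate it was -3.81 cycles over both runs (SE 0.616). That fit uses the 22 diameters of unknown comparability, all of them at 100 mM. Whether size accounts for any of the difference in mean cycle number was not tested. Within a run and dose, Pearson's r between log2 diameter and mean cycle number lay between -0.36 and 0.00 (n = 11 to 23).

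Assay by assay, nearly every transcript was read earlier at 100 mM. The uncentred level of an assay is its cycle number with the sign turned, so that higher means more product. Of 71 assays with a value in at least 50% of the 67 neurospheres, 69 (97.2%) were higher at 100 mM and 0 were lower, by limma with run as a covariate and Benjamini-Hochberg adjustment over the 71, at 0.05. The count with an unadjusted p under 0.05 was also 69. The 50% filter pools both doses and missing values are left out, so some of these tests rest on few unexposed neurospheres. Besides A033 and A041, treated below, A059 had a value in 8 of 34 unexposed and 30 of 33 exposed neurospheres. A010 had one in 13 of 34 and 32 of 33, and both count among the 69. With a value required in at least 95% of the neurospheres, 51 assays were higher and 0 lower. The median change over the 71 assays was 3.30 on the log2 scale, the middle part between the quartiles ran from 1.83 to 4.38, and 50 assays rose by more than 4-fold. In run 1 alone 47 were higher, and in run 3 alone 65, with 0 lower in each. Of the 68 called assays with a change in both runs, 64 had the same direction in both. The exceptions were A047, A052 and A072, of the 4 set apart above, and A023, with -0.33 in run 1 and 1.96 in run 3. Each was lower in run 1, without passing the test there, and higher in run 3.

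Both assays that did not pass the test, A033 and A041, were transcripts that most unexposed neurospheres lacked. They are named because they are the 2 exceptions, after their values were seen. A033 was measured in 10 of 34 unexposed and all 33 exposed neurospheres. Its uncentred change among neurospheres with a value was -0.29 (SE 1.08, limma adjusted p = 0.790). The single run 1 neurosphere at 0 mM with a value read A033 at 18.8 cycles. The 9 such neurospheres of run 3 had a median of 16.6 cycles, the same to 3 digits as the 22 at 100 mM. A041 was measured in 12 of 34 unexposed and 24 of 33 exposed neurospheres, with an uncentred change of 0.81 (SE 0.92, limma adjusted p = 0.389). The level tests of both assays therefore leave out most of the unexposed neurospheres.

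Detection rose with exposure. Of 24 assays detected in 5% to 95% of the 67 neurospheres, 22 (91.7%) were detected in a larger share at 100 mM in the exact conditional Mantel-Haenszel test with runs as strata, two-sided, Benjamini-Hochberg adjusted over the 24 at 0.05. Among these 22 the number of neurospheres with a value lay between 1 and 28 of 34 at 0 mM, with a median of 19, and between 10 and 33 of 33 at 100 mM, with a median of 33. A024, A045 and A062 had values in run 1 only and A036 in run 3 only, so their tests rest on that run. A062, with the lowest count at 100 mM, was detected in 10 of 11 exposed and 1 of 11 unexposed neurospheres of run 1. A036 was detected in 22 of 22 exposed and 11 of 23 unexposed neurospheres of run 3. These assays are named after their values were seen. At 100 mM 13 of the 22 assays were detected in every neurosphere. The gain in share was between 17.8 and 70.7 percentage points, and A033 had the largest. Over all 75 assays, 42 were detected in every neurosphere at 0 mM and 64 at 100 mM, and missing values made up 16.0% of readings at 0 mM and 4.69% at 100 mM.

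A072 was the 1 assay called as detected less often at 100 mM in the combined test, in 28 of 33 neurospheres against 34 of 34 (exact test, adjusted p = 0.0230). All 5 losses were in run 3, where 17 of 22 exposed neurospheres had a value against 23 of 23 at 0 mM. With readings above 25 cycles counted as not detected, A072 had a value in 28 of 33 exposed and 28 of 34 unexposed neurospheres, and this call was lost (exact test, adjusted p = 1). A014 was the 1 assay of the 24 that did not pass the combined test, with a value in 15 of 33 exposed and 20 of 34 unexposed neurospheres (exact test, adjusted p = 0.307). Its runs went opposite ways and each passed the test alone. In run 1 A014 was detected in 6 of 11 exposed and 0 of 11 unexposed neurospheres (exact test, adjusted p = 0.0237), and in run 3 in 9 of 22 exposed and 20 of 23 unexposed ones (exact test, adjusted p = 0.00401). The difference between runs was not tested for A014. Both are named because each is a single exception, after their values were seen.

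**Figure D2:**
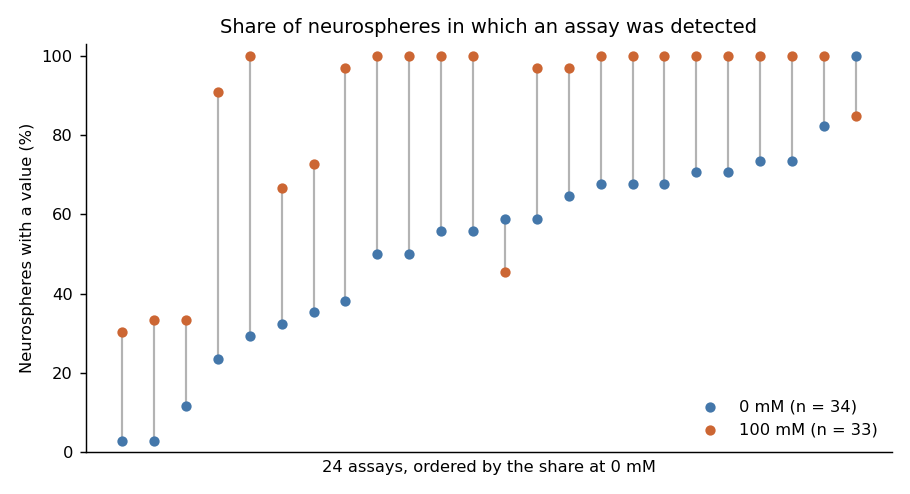
Share of neurospheres with a value, in percent, for the 24 assays detected in 5% to 95% of the 67 neurospheres, ordered along the horizontal axis by the share at 0 mM. Blue points are 0 mM (n = 34), orange points 100 mM (n = 33), and a line joins the 2 points of an assay; orange lies above blue in 22 assays and below it in A014 and A072.

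Against this common shift, transcripts did not move by equal amounts. The relative level of an assay is its cycle number set against the mean cycle number of the same neurosphere, with the sign turned, so it asks whether a transcript moved more or less than the 50 widely detected assays. Of the 71 assays, 54 (76.1%) differed in relative level between doses by limma with Benjamini-Hochberg adjustment at 0.05. Of these, 27 (38%) were higher and 27 (38%) were lower at 100 mM. Without the 4 discordant assays 52 were called. With a value required in at least 95% of the neurospheres, 43 were called, 18 higher and 25 lower. With each run and dose reduced to 1 mean, which leaves 4 values per assay, 22 were called, 10 higher and 12 lower. The rising assays had a median log2 change of 1.80, which is 3.48-fold, and 12 of them rose by more than 4-fold. The falling assays had a median of -1.68, which is 3.20-fold in size, and 9 fell by more than 4-fold. Over all 71 the median was 0.03.

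The split into rising and falling assays is set by what each neurosphere is centred on. With the median as the centre it was 34 higher and 22 lower, and with the 5 assays that varied least between neurospheres it was 50 higher and 2 lower. Those 5, A009, A013, A023, A027 and A042, were all among the assays lower in relative level. A split towards higher therefore follows from that choice of centre. Without centring the split was the 69 and 0 given above. Of the 27 assays lower in relative level, 26 were higher in uncentred level, and the exception was A033. The relative change of A033 was -1.40 (limma adjusted p = 0.0329), over 33 exposed and only 10 unexposed neurospheres with a value. It turned to 4.76 with missing values set to 30 cycles (limma adjusted p = 1.24e-07) and was not called with median centring (limma adjusted p = 0.0666). Of the 41 assays with a value in every neurosphere, 12 were higher and 23 lower in relative level. Of the 30 that were missing in at least 1 neurosphere, 15 were higher and 4 lower.

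A001 and A018 rose most in relative level, and A009 and A065 fell most, among the assays called, with the same direction in both runs and a value in at least 95% of the 67 neurospheres. That rule left 43 assays, 18 rising and 25 falling, from which the 2 with the largest change in each direction were taken.

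A018 had nearly the same large change in both runs. In run 1 it was read between 13.9 and 21.4 cycles at 0 mM, with a median of 19.9 over 10 neurospheres, and between 8.05 and 14.5 at 100 mM, with a median of 8.97 over 11. In run 3 the readings lay between 12.0 and 23.5 cycles at 0 mM, with a median of 19.2 over 22 neurospheres, and between 8.35 and 13.9 at 100 mM, with a median of 10.2 over 22. The cycle numbers overlapped in both runs, with 1 of 10 and 4 of 22 unexposed neurospheres reaching into the 100 mM range. Its relative level rose by 4.61 on the log2 scale (SE 0.36, limma adjusted p = 8.67e-18), about 24.4-fold. The change was 4.61 in run 1 and 4.60 in run 3, and the test of the difference between runs gave -0.01 (SE 0.77, limma adjusted p = 0.994). In run 3 the relative levels of the groups did not overlap, between -8.24 and -2.02 at 0 mM and between -1.82 and 0.48 at 100 mM. In run 1 they overlapped by 1 unexposed neurosphere. The uncentred change was 7.99 (SE 0.75, limma adjusted p = 1.43e-14). In Set-B neurospheres labelled with doses between these, the median of A018 was 20.1 cycles in run 1 and 18.7 in run 3 at 25 mM, and 10.7 and 13.5 at 70 mM, given here as levels only.

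A001 had the largest combined change, but its size differed between runs. In run 3 it was read between 13.8 and 27.6 cycles at 0 mM, with a median of 21.8 over 22 neurospheres, and between 11.3 and 18.2 at 100 mM, with a median of 13.1 over 22. There 7 of 22 unexposed neurospheres reached into the 100 mM range. In run 1 the 10 unexposed neurospheres with a value lay between 17.8 and 24.3 cycles with a median of 21.85. The 11 exposed ones there lay between 7.68 and 12.3 with a median of 7.90, and the groups did not overlap. The relative level rose by 9.33 in run 1 (SE 0.59) and 3.17 in run 3 (SE 0.48), and the run 3 change was smaller by 6.16 (SE 0.81, limma adjusted p = 4.55e-09). The combined change of 5.15 (SE 0.52, limma adjusted p = 1.15e-13) is therefore a mean of 2 unequal values. With 1 mean per run and dose A001 was not called, at 6.25 (limma adjusted p = 0.107). The unexposed medians of A001 were alike in both runs. Its gap between runs, for which it was set apart, lay in the exposed neurospheres. At 25 mM its medians were 7.92 cycles in run 1 and 20.85 in run 3, and at 70 mM 7.81 and 17.

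A009 and A065 differed little between doses in cycle number. In run 1 A009 was read between 12.4 and 21.2 cycles at 0 mM, with a median of 15.5, and between 12.6 and 17.0 at 100 mM, with a median of 15.3. In run 3 its medians were 14.5 cycles at 0 mM, between 10.9 and 16.5, and 12.9 at 100 mM, between 12.1 and 16.0. The groups overlapped widely in both runs. Its relative level fell by 2.62 on the log2 scale (SE 0.36, limma adjusted p = 1.73e-09), while its uncentred level was higher by 0.85 (SE 0.39, limma adjusted p = 0.0349), so the direction flips without centring. The relative level fell by 3.08 in run 1 and fell by 2.40 in run 3, and the doses overlapped on this scale too.

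A065 was read at a median of 12.9 cycles at 0 mM and 12.0 at 100 mM in run 1, and at 13.3 and 11.4 in run 3. Its lowest and highest readings were 9.53 and 15.6 cycles at 0 mM and 9.35 and 14.4 at 100 mM over both runs. Its relative level fell by 2.38 (SE 0.28, limma adjusted p = 1.34e-11), and its uncentred level was higher by 1.09 (SE 0.37, limma adjusted p = 0.00526), which again flips the direction. In relative level 3 of 11 unexposed neurospheres in run 1 and 8 of 23 in run 3 reached into the 100 mM range.

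**Figure D3:**
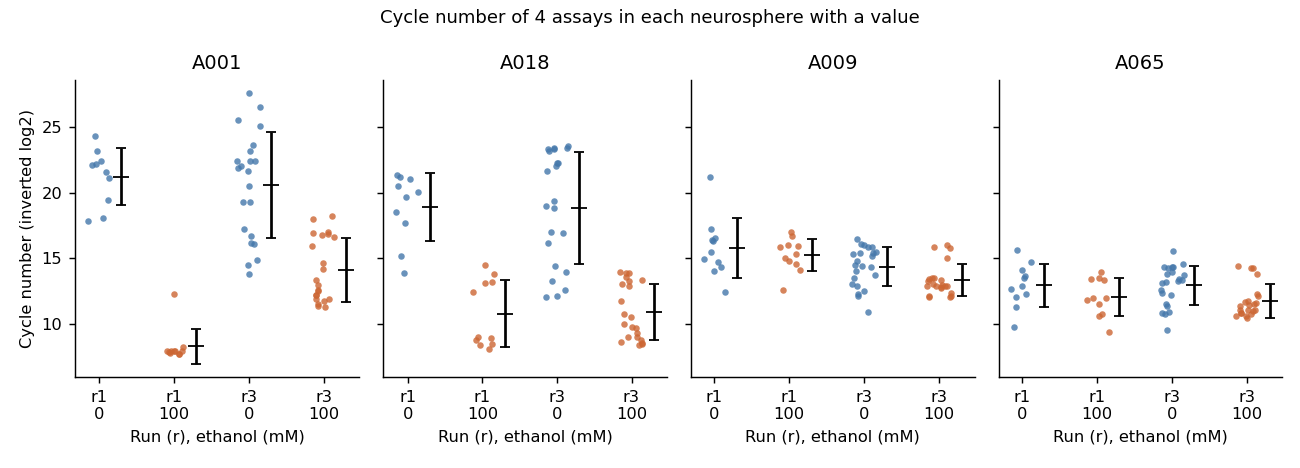
Cycle number (inverted log2 scale, so lower means more product) of A001, A018, A009 and A065 in each Set-B neurosphere with a value, by run (r1, r3) and ethanol dose in mM, with the mean ± SD beside each group. A001 and A018 fall by many cycles at 100 mM, with exposed run 1 medians of 7.90 and 8.97, while the doses overlap in A009 and A065.

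The pattern across transcripts was much alike in both runs once the 4 discordant assays were set apart. Of 70 assays with a change in both runs, 61 had the same direction in relative level, and of the 53 called in the combined test 52 did. The exception was A033, with 0.10 in run 1 and -1.62 in run 3. Called in each run by itself were 37 assays with the same direction and 3 with opposite directions. Across assays Pearson's r between the run 1 and run 3 changes was 0.70 (Spearman's rho 0.75, n = 70), and 0.91 (rho 0.92, n = 66) without the 4. Assays of the same neurospheres are not independent, and all share the centring value. In a dose by run interaction fitted by limma with Benjamini-Hochberg adjustment, the change differed between runs in 7 of 69 assays (10.1%). All 4 discordant assays were among them.

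A047, A052 and A072 were the 3 with opposite directions. In run 1 A052 was read at a median of 3.41 cycles at 0 mM and 4.85 at 100 mM, and in run 3 at 19.1 and 13.6. Its lowest 0 mM reading in run 1, 3.14 cycles, was the lowest of all readings compared. Those of A047 and A072 there were 4.23 and 3.93 cycles. Whether readings this early could come earlier still was not tested. The relative level of A052 changed by -4.20 in run 1 (SE 0.67, limma adjusted p = 2.24e-05) and by 1.77 in run 3 (SE 0.39, limma adjusted p = 0.000102). A047 changed by -4.03 in run 1 and 2.62 in run 3, and A072 by -4.64 and 2.12. In run 1 the uncentred changes were -0.50 for A047, -0.70 for A052 and -1.04 for A072, with limma adjusted p between 0.218 and 0.561, so these readings did not follow the common shift there. In run 3 they were 6.03, 5.10 and 5.05. With the 4 left out, the interaction was called in 3 of 65 assays. These were A013, with -0.25 in run 1 and -1.99 in run 3, A023, with -3.99 and -1.45, and A060, with -1.29 and 0.67, each named after its value was seen.

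**Figure D4:**
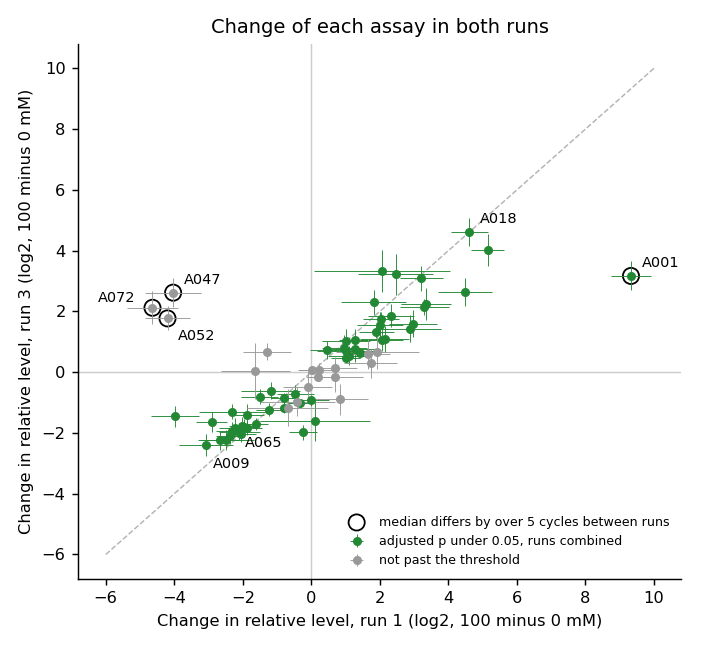
Change in relative level (log2, 100 minus 0 mM) of 70 assays in run 1 (horizontal axis) and run 3 (vertical axis), with bars of 1 SE; the dashed line marks equal changes, green points passed the combined test, and rings mark the 4 assays whose median differs by over 5 cycles between runs. Most points lie along the dashed line, A047, A052 and A072 lie on opposite sides of 0 in the 2 runs, and A001 is at 9.33 in run 1 and 3.17 in run 3.

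Among 47 assays, transcripts that moved more cycles per cycle of the mean between unexposed neurospheres also tended to differ more between doses. For 47 of the widely detected assays, without the discordant ones, the slope of the cycle number on the mean of the other widely detected assays was taken within run among the 0 mM neurospheres of Set-B. A slope of 1 would mean that a transcript moves cycle for cycle with the mean. The slopes ran from 0.483 in A009 to 1.73, with a median of 0.864, and A018 had 1.63 and A065 0.571. Across the 47 assays Pearson's r between this slope and the uncentred change at 100 mM was 0.89 (Spearman's rho 0.89). The unexposed neurospheres enter both quantities, so the slopes were also taken among the 34 unexposed Set-A neurospheres, which are in no part of the Set-B comparison. There A009 had 0.383, A065 0.782 and A018 1.25, and r with the Set-B change was 0.65 (rho 0.72, n = 47). Among the exposed neurospheres themselves r was 0.68 (rho 0.78). These are descriptions over assays that share neurospheres, with no test.

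**Figure D5:**
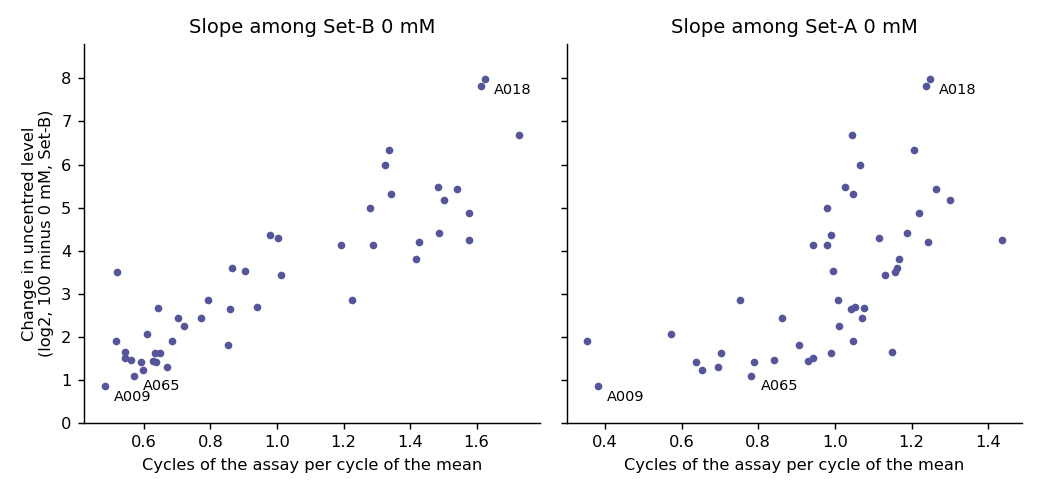
Uncentred change at 100 mM in Set-B (vertical axis, log2) of 47 assays against the slope of each on the mean of the other widely detected assays among unexposed neurospheres of Set-B (left) and Set-A (right), 1 point per assay. A009 and A065 have small slopes and small changes, and A018 has a slope of 1.63 in Set-B, 1.25 in Set-A and the largest change shown, 7.99.

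With the mean cycle number of each neurosphere as a covariate in the limma fit, 36 assays differed in relative level with dose, 14 higher and 22 lower. All 14 were among the 27 rising assays and 19 of the 22 among the 27 falling ones. The mean cycle number differs with dose and is also part of the relative level. This fit therefore cannot separate dose from the common shift. The change of A018 was then 3.00 (SE 0.37, limma adjusted p = 1.40e-09) and that of A001 4.07 (SE 0.66, limma adjusted p = 9.57e-07). A009 fell by 0.92 (SE 0.38, limma adjusted p = 0.0347) and A065 by 0.99 (SE 0.27, limma adjusted p = 0.00222) in the same fit. Early and late transcripts were also compared. Ordered by the median cycle number among unexposed Set-A neurospheres, the earliest 22 of 66 assays had a median uncentred change of 2.53, the middle 22 one of 3.89 and the latest 22 one of 3.32 (Pearson's r 0.04, Spearman's rho 0.10, n = 66). In relative level 6 of the earliest 22 were higher and 14 lower, against 10 and 8 of the middle 22 and 10 and 4 of the latest 22, a description with no test.

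In run 3, exposed neurospheres resembled each other more closely in the proportions of their transcripts. The median SD of the relative level over the 71 assays was 1.59 at 0 mM and 1.14 at 100 mM in run 1, and 1.28 and 0.648 in run 3. The spread was tested by limma on absolute deviations from the median of run and dose, with Benjamini-Hochberg adjustment. It was smaller at 100 mM in 24 of 71 assays (33.8%) and larger in 0, with 35 at an unadjusted p under 0.05. A018 was among them, with a mean deviation smaller by 1.05 on the log2 scale (limma adjusted p = 2.87e-05). The result rests on run 3, with 46 assays called in run 3 alone and 0 in run 1 alone, where 7 had an unadjusted p under 0.05. Without centring 4 assays were called. Whether the runs differ in this respect was not tested. The spread of the mean cycle number itself differed by -0.269 cycles (SE 0.335, permutation p = 0.429), which did not pass the test.

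The same dose was given to Set-A, which has its own unexposed neurospheres, and the response there was smaller. The mean cycle number differed by -1.39 cycles in Set-A (SE 0.480, permutation p = 0.00605, 33 neurospheres at 100 mM and 34 at 0 mM). The Set-B difference was larger in size by 2.09 cycles, a value of -2.09 (SE 0.688, permutation p = 0.00272, adjusted p = 0.00490). The 2 runs of Set-A were unequal. In run 1, which both sets share, the difference was -0.257 cycles in Set-A and -3.60 in Set-B. In run 2 the Set-A means were 14.3 cycles at 0 mM and 12.3 at 100 mM. The sets were not compared in mean cycle number within run 1 alone. In detected assays the gain was 1.49 in Set-A (SE 0.722, permutation p = 0.0438, adjusted p = 0.0563), and Set-B exceeded it by 7.04 assays (SE 1.30, permutation p = 1e-05, adjusted p = 2.25e-05). Unexposed neurospheres had 68.6 ± 3.40 detected assays in Set-A (SD, n = 34) and 63.0 ± 6.01 in Set-B (SD, n = 34). Exposed neurospheres had 70.1 ± 2.56 in Set-A (SD, n = 33) and 71.5 ± 1.48 in Set-B (SD, n = 33), of 75 assays. The sets thus lay further apart at 0 mM than at 100 mM, and Set-A had less room to gain. How much of the difference in gain comes from the unexposed counts was not tested.

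In relative level the dose by set interaction was called by limma with Benjamini-Hochberg adjustment in 44 of 70 assays (62.9%), 21 with a more positive and 23 with a more negative change in Set-B. Without the 4 discordant assays it was called in 43. Of the 53 assays called in Set-B and tested in both sets, 43 also differed from Set-A. The Set-B change is part of both tests, so this overlap is no separate evidence of a difference between sets. A018 changed by -0.05 in Set-A (SE 0.30), which is 4.66 less than in Set-B (SE 0.47, limma adjusted p = 4.19e-16). A065 changed by 0.41 in Set-A and A009 by -0.71, and Set-B minus Set-A was -2.79 for A065 (limma adjusted p = 1.64e-08) and -1.92 for A009 (limma adjusted p = 0.000969). A001 had opposite directions, 5.15 in Set-B and -2.33 in Set-A, a difference of 7.48 (SE 0.73, limma adjusted p = 1.59e-16). The uncentred change of A001 in Set-A, -0.93, did not pass the test (SE 0.74, limma adjusted p = 0.258). Its Set-A medians were 7.78 cycles at 0 mM and 15.3 at 100 mM in run 1, and 16.5 and 15.6 in run 2. In uncentred level A009 and A065 did not pass the test of the difference between sets, with 0.36 (SE 0.50, limma adjusted p = 0.565) and -0.67 (SE 0.59, limma adjusted p = 0.341). The sets shared run 1 but were otherwise read in separate runs.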

How the data were processed

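Neurospheres were imaged and lysed one by one, and their lysates went straight into reverse transcription and pre-amplification, per the labels' protocols. Biomark HD arrays with EvaGreen dye were used for reading. Ct values came from the instrument's software per the labels, and the authors deposited them not normalized per the file headers. The basis of a missing value was not given in the sources used here.

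Cycle numbers were used with the sign turned, as they stand or centred on each neurosphere's mean across the 50 assays present in at least 95% of the 264 neurospheres. Missing values were left out of level tests. Assays with a value in at least 50% of the 67 neurospheres entered limma 3.58.1 (lmFit and eBayes, R 4.3.3), with run as a covariate and Benjamini-Hochberg adjustment at 0.05. For detection, the exact conditional Mantel-Haenszel test was used with runs as strata. Whole-neurosphere values were tested by two-sided permutation within run, with 100000 resamples and adjustment over 9 tests; for differences between runs or sets, residuals of the additive fit were permuted. Python 3.11.15, numpy 2.4.6, pandas 2.3.3, scipy 1.17.1 and matplotlib 3.10.9 were used. The level, detection and permutation tests were checked on simulated data.

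The 2 named assays in each direction were those with the largest combined change among assays called, alike in direction in both runs and detected in at least 95% of the 67 neurospheres. The neurospheres compared, the tests and this rule were chosen with earlier results of these data known. Alternatives were other centrings, covariates, filters and treatments of missing values, single runs and fewer assays.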

Additional observations from a re-analysis of the deposited data

Results flagged for a closer look

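Several results stand out because the response to 100 mM ethanol differed between groups of neurospheres in a direct test of that difference. Between the culture sets, the change in mean cycle number differed by -2.09 cycles, and the gain in detected assays was larger in Set-B by 7.04. Detected assays averaged 63.0 in Set-B and 68.6 in Set-A at 0 mM, and 71.5 and 70.1 at 100 mM. The relative change differed between sets in 44 assays. For A001 it differed by 7.48, for A018 by 4.66, for A009 by -1.92 and for A065 by -2.79 (Set-B minus Set-A, log2). In uncentred level the difference between sets did not pass the test for A009, at 0.36, or A065, at -0.67. The relative level of A001 in Set-A averaged 3.95 at 0 mM and -1.63 at 100 mM in run 1. In run 2 it averaged -2.13 and -2.95, so the Set-A change of A001 was mostly in run 1. Between the runs of Set-B the relative change differed in 7 assays. Run 3 minus run 1 was -6.16 for A001, 6.65 for A047, 5.97 for A052 and 6.76 for A072, the 4 assays whose medians lay over 5 cycles apart between the runs.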

How the results depend on the processing

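The difference in mean cycle number kept its direction and stayed past the threshold in all 9 alternatives, between -3.81 and -2.92 cycles. The gain in detected assays did so in 4, between 6.42 and 12.8. The title position codes shared by both doses do not pair neurospheres. Deviations of the 33 same-coded pairs had correlations from -0.88 to 0.81 with a median of 0.04, and a neurosphere matched its own code best in 3. With these codes as a replicate block the values were -3.49 cycles, 8.70 assays, a log2 diameter difference of -0.52, 53 assays changed in relative level and 67 in uncentred level. Log2 diameter was -0.13 in run 1 alone, no longer past the threshold. The spread of mean cycle number, past no threshold, turned to 0.171 in run 1 alone. Treating each run and dose as 1 mean left 22 assays changed in relative level, and A001 then missed the threshold with a change of 6.25 (limma adjusted p = 0.107). Without centring the relative changes of A009 and A065 reversed to 0.85 and 1.09. Spread was smaller in 4 assays without centring, in 0 in run 1 alone and in 46 in run 3 alone. The change differed between runs in 4 assays without centring, in 4 with missing values set to 30 cycles, and in 3 without the 4 discordant assays, an alternative chosen after seeing the data. The cause of each of these changes was not tested, except that the block, the means and the left-out assays leave fewer values. Detection calls, and the assays that differed from Set-A, stayed within 1.5 times their counts. The 22 higher and 1 lower detection calls became 23 and 0 with readings above 25 cycles counted as not detected, where A072 was no longer called, and 14 and 2 in run 3 alone, where A014 was also lower. A single culture set and an unstated rule for missing values limit all of these results.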
